A study of Mus musculus with 3 samples.

Results

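The genes described here are the 354 rows of the blastocyst gene table that carry a non-coding RefSeq identifier (NR_), lie on chromosomes 1 to 19 and were selected on their level, a mean of 5 or more CPM (counts scaled to the library total) over the 3 libraries. Names of microRNAs, snoRNAs, scaRNAs, ribosomal RNA, Snhg and H2- genes were left out by the rule, which leaves 2274 of the 24063 rows of the table before the level is asked. Of these 2274, 1078 had no count in any library. The libraries were low-input RNA-Seq of untreated mouse embryos, 1 from the C57BL/6 strain (B6) and 2 from the non-obese diabetic strain (NOD), which develops autoimmune diabetes spontaneously. The labels name whole blastocysts as the input, and the study's methods describe inner cell masses freed by immunosurgery. The methods speak of single inner cell masses going into lysis buffer, and neither source states an embryo's age in days. With 1 B6 library, strain and library cannot be told apart, and p-values measure the spread between these samples, which may be technical.

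Long non-coding RNAs are transcripts that are often spliced and capped much like messenger RNAs but are not read into protein. Some build nuclear bodies, some silence imprinted gene clusters on the chromosome they come from, some are carriers whose introns are cut into snoRNAs, and many start from the promoter of a coding gene on the opposite strand. Pseudogenes are copies of coding genes, most often made by retrotransposition of a spliced messenger RNA. A RefSeq NR_ identifier is also given to transcripts of ordinary coding genes that are not predicted to make the protein. The levels below are CPM scaled by TMM factors, and levels are compared between genes only per kilobase of listed transcript (FPKM).

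By the annotation column of the table, 174 of the 354 rows were non-coding RNAs, 56 were pseudogenes and 124 had the symbol of a protein-coding gene. For the 122 coding symbols with a GENCODE transcript of the same identifier, a median of 100% of the transcript's bases lay in exons of coding transcripts of the same gene, and 94 had 90% or more. Over those bases a read on the row could also come from the messenger RNA, so the label of a non-coding RNA cannot be checked by position for these 94 rows. The other coding symbols had a smaller share or no transcript to measure. RefSeq gave 151 of the 154 non-coding rows it matched the type lncRNA. Btbd19, Rhno1 and Smim4, listed among the 174, found no match by identifier.

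Pseudogene rows had a second feature that the sequences show. RefSeq placed 327 of the 354 members, and 13 of them, all among its 55 matched pseudogenes, were listed in the table at a different place from RefSeq's, on the span of a coding gene. Among the NM_ rows tested, 23 of 13301 were listed elsewhere. Windows of 60 bases from the coding exons of 3 such genes are printed with the matching window of the pseudogene, from GENCODE M21 transcripts on GRCm38 (mm10), and capitals mark the bases that differ.
Rpl26, coding exon, chr11:68903179-68903238, plus strand: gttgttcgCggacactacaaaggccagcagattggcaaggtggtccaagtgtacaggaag
Gm15772, pseudogene, chr5:3236599-3236658, plus strand: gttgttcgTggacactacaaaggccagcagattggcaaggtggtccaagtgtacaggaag
Rmnd1, coding exon, chr10:4413332-4413391, minus strand: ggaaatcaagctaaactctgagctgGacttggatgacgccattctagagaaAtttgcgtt
Gm5512, pseudogene, chr19:12906192-12906251, plus strand: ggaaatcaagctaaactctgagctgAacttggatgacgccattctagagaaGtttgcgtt
Ass1, coding exon, chr2:31488578-31488637, plus strand: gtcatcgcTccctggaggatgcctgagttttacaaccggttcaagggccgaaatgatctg
Gm5424, pseudogene, chr10:62071543-62071602, plus strand: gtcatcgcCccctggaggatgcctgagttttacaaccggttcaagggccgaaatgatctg
The reads were 50 bases long. Of the 50-base words of the pseudogene transcript, 74.3% for Gm15772, 79.5% for Gm5512 and 76.5% for Gm5424 also stood in the transcript of the coding gene.

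The table listed Gm15772 on chromosome 11 at the gene of ribosomal protein L26, not on chromosome 5. Its counts were 7592 in B6 against 8226 and 8245 in NOD 1 and NOD 2, beside 7636, 8483 and 8565 for Rpl26. Gm6644 held 59, 286 and 339 counts and Akr1b3, an aldo-keto reductase at the same place, 59, 286 and 344. For these pseudogene rows the counts were those of the coding gene to within 4% in every library. Gm5424 held 990, 723 and 1289 counts, beside 1155, 737 and 1314 for Ass1, the argininosuccinate synthase of the urea cycle. The others were Gm12191 at Rpl30, Atp6v0c-ps2 at Atp6v0c, Gm7367 at Ubald2, Gm12669 at Glrx3, Gm5801 at Ube2j2, Oaz1-ps at Oaz1, Gm1821 at the ubiquitin gene Ubb, and Gm5643 and Gm10052 both at Hnrnpa1. Atp6v0c-ps2 held 91.1% of the count of Atp6v0c in B6, but 17.4% and 22.1% of it in NOD 1 and NOD 2. Gm12669 went the other way, with 3.88% of the Glrx3 count in B6 and 22.7% and 28.3% in the NOD libraries.

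**Figure D1:**
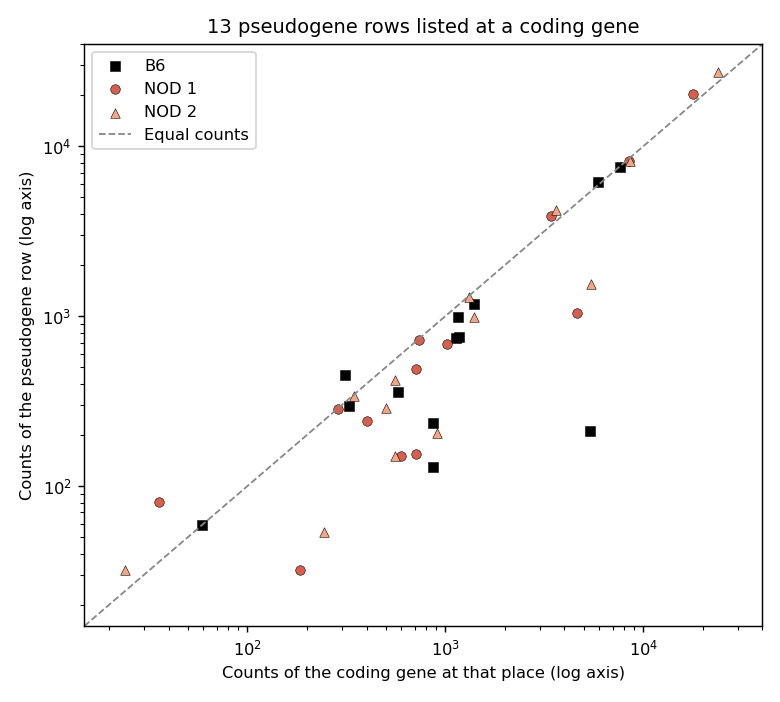
Counts of the 13 pseudogene rows listed at a coding gene (vertical, log axis) against the counts of that gene (horizontal, log axis), with 1 point for each library. The dashed line marks equal counts, on which Gm6644 and Akr1b3 lie in B6 (59 each), with Gm15772 close under it beside Rpl26 (7592 and 7636 in B6), and the lowest point for its gene is Gm12669 in B6 at 3.88% of Glrx3.

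In the comparison of NOD with B6, which asks how the strains differ before implantation, 42 of the 354 members were called higher in NOD and 49 lower, and 263 were not called. All 354 passed the filter on low counts and entered edgeR's quasi-likelihood test, which was fitted on 14456 genes with calls made where the Benjamini-Hochberg adjusted p was under 0.05 and the levels differed 2-fold or more. Called and not called refer to this test unless another is named. The background in that fit was 10.3% of genes called higher and 7.39% called lower. Among the 9810 genes tested that reach the same mean of 5 CPM it was 13.4% higher and 9.86% lower. The members stood at 11.9% higher and 13.8% lower. Both NOD libraries lay above B6 for 137 members, both lay below for 190, and the NOD libraries lay on opposite sides for 27. These are 38.7% above and 53.7% below, beside 45.5% and 43.7% over all genes tested at 5 CPM or more.

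The rule uses the mean over the 3 libraries, so a member can pass through 1 strain alone. In B6, 36 members were under 5 CPM, and 62 were under it in the mean of the NOD libraries. Of the called members, 15 of the 42 higher were among these 36 and 23 of the 49 lower among these 62, and for them the direction follows from the rule. Just inside the limit lay 4632415L05Rik with a mean of 5.001 CPM on total counts, 1700034H15Rik with 5.006 and C030034I22Rik with 5.05. Just outside lay Rps15a-ps4 with 4.99, Gm20300 with 4.96 and E030024N20Rik with 4.94. The members held 2.46% of all counts in B6 against 2.30% and 2.11% in NOD 1 and NOD 2. With 3 libraries no permutation test can reach 0.05, and this share was not tested.

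The 3 classes of rows did not sit at the same place. Of the 174 non-coding RNAs, 17 were higher and 29 lower, with a median log2 fold change of -0.85, and 109 of them (62.6%, beside 43.7% over all genes at that level) were below B6 in both NOD libraries. Of the 56 pseudogenes, 9 were higher and 10 lower, with a median of -0.37. The 124 coding symbols had 16 higher and 10 lower and a median of 0.13, against 0.05 over all genes tested at 5 CPM or more. The median of the non-coding RNAs lay under that of NM_ rows in each of 4 ranges of mean level. From 5 to 10 CPM the median was -0.86 for 66 non-coding RNAs and -0.12 for 1234 NM_ rows, and from 20 to 50 CPM it was -1.29 for 31 and -0.24 for 2500. The median of the non-coding RNAs was -0.92 without NOD 1 and -0.69 without NOD 2. Whether the classes differ was not tested, since members of a class are not replicates.

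**Figure D2:**
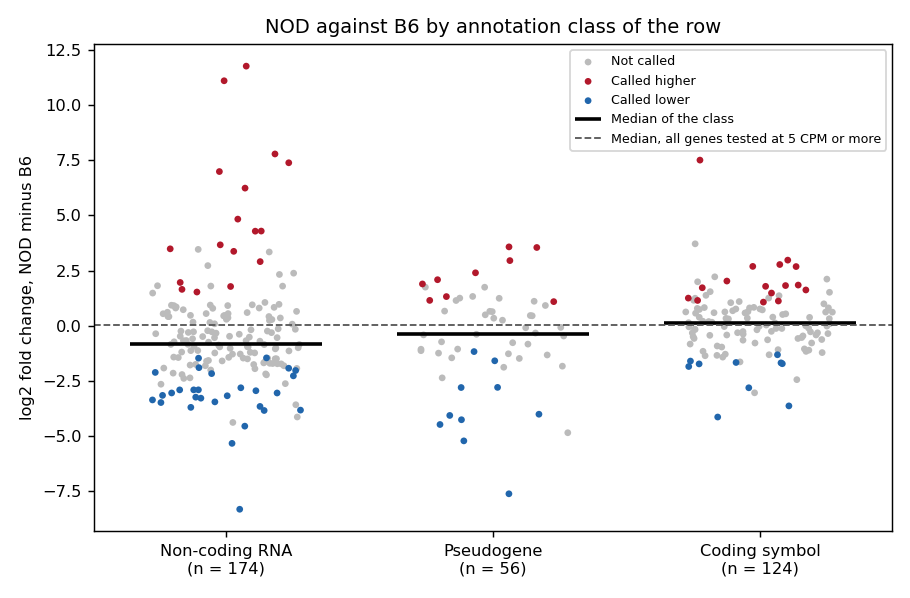
Log2 fold change of NOD minus B6 for each of the 354 members (1 point each, spread sideways for display), by the class the table gives the row, with called members in colour and the class median as a bar. The medians are -0.85 for non-coding RNAs, -0.37 for pseudogenes and 0.13 for coding symbols, and the dashed line is the median of 0.05 over all genes tested at 5 CPM or more.

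A subset of 77 non-coding RNAs was placed by RefSeq where the table had it, or not placed, and shared under 10% of its exon bases and under 10% of its 50-base words with another gene. It had 6 members higher and 16 lower, and a median log2 fold change of -0.89. Non-coding RNAs whose span overlapped another gene (91) had 9 higher and 19 lower, and those without an overlap (83) had 8 higher and 10 lower. Over all genes tested at 5 CPM or more the shares were 13.4% higher and 9.86% lower. By exon number in GENCODE, 0 of the 19 single-exon RNAs were called higher and 4 lower by edgeR, with 8 at an unadjusted p under 0.05, and single-exon Malat1 was higher by 0.91 without a call. In both NOD libraries 9 of the 19 lay above B6 and 10 below. Of the 88 with 2 to 4 exons, 12 were called higher and 12 lower, and 56.8% lay below B6 in both NOD libraries. Of the 33 with over 4 exons, 3 were called higher and 8 lower, and 26 lay below B6 in both NOD libraries (78.8%, beside 43.7% over all genes at 5 CPM or more). With these numbers of rows the counts are a description and were not tested against each other.

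Of the 3 listed imprinted RNAs that reached the mean of 5 CPM, 2 were called lower, beside 9.86% over all genes tested at that level. On total counts Nespas was at 1.48 and 2.93 CPM and Meg3 at 0.413 and 1.85 in NOD 1 and NOD 2. These 2 passed the rule through B6 alone, and their direction follows from it. Kcnq1ot1, which is transcribed from the paternal chromosome inside Kcnq1 and silences its neighbours, was at 57.5 CPM in B6 against 7.74 and 4.85 in NOD 1 and NOD 2. Its log2 fold change was -3.19 ± 0.46 (SE, edgeR adjusted p = 0.024). Nespas (Gnasas1 in RefSeq), the antisense RNA of the Gnas cluster, was at 22.1, 1.51 and 3.11 CPM, a log2 fold change of -3.25 ± 0.68 (edgeR adjusted p = 0.041), and its call was lost with upper-quartile scaling (adjusted p = 0.054). Without NOD 2 the log2 fold change of Nespas was -3.86, and without NOD 1 -2.82. Both RNAs were several-fold lower in each NOD library than in B6. Meg3, a maternally expressed RNA of the Dlk1-Dio3 cluster, was at 14.5, 0.424 and 1.97 CPM and missed the threshold (log2 fold change -3.60 ± 1.02, edgeR adjusted p = 0.071), with 198 counts in B6 against 14 and 67. DESeq2 called Meg3 lower (adjusted p = 0.010). Gnas itself, which encodes a G protein subunit, was called higher at 248 CPM in B6 against 515 and 609 (log2 fold change 1.18), so the antisense RNA and the coding gene of this cluster moved in opposite directions.

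Of 13 nuclear and structural long RNAs, 4 fell, 1 rose and 8 were not called, beside 9.86% lower and 13.4% higher over all genes tested at 5 CPM or more. Neat1, an RNA of paraspeckles, was counted over chr19:5842302-5845478 only. That row was at 97.6 CPM in B6 and 22.1 and 20.9 in the NOD libraries (log2 fold change -2.18 ± 0.33, edgeR adjusted p = 0.026). Pvt1, a neighbour of Myc, was at 41.2, 5.29 and 5.58 CPM (-2.92 ± 0.43). For both, the NOD libraries lay close together and far from B6. The snoRNA carriers 1110038B12Rik, at 135.1 CPM in B6 against 15.1 and 9.37, and 2410006H16Rik, at 166 against 48.0 and 38.4, were the other members of the list that fell. Oip5os1 (1700020I14Rik in the table), a conserved RNA also known as Cyrano, rose from 31.5 CPM to 85.3 and 95.7 (1.52 ± 0.34, edgeR adjusted p = 0.047). That call sat at the threshold and was lost with total-count scaling (adjusted p = 0.062) and upper-quartile scaling (adjusted p = 0.058).

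Malat1, a nuclear speckle RNA, was the member with the highest mean CPM, and the highest mean FPKM of the 174 non-coding RNAs. It was at 1135 CPM in B6 against 2971 and 1285 in NOD 1 and NOD 2, or 163, 426 and 184 FPKM. NOD 1 carries that mean: in B6 alone 2410006H16Rik stood higher, at 363 FPKM, and in NOD 2 alone 0610012G03Rik did, at 217. One NOD library stood near B6 and the other far above it, and the difference was not called (log2 fold change 0.91 ± 0.52, edgeR adjusted p = 0.25). Tug1 showed the same split with the libraries exchanged, at 37.4 CPM in B6 against 38.5 and 116 in NOD 1 and NOD 2. Norad, which binds Pumilio proteins, was at 5.43, 7.65 and 6.23 CPM (0.35 ± 0.66). Sra1 (0.78 ± 0.25), Gas5 (-0.55 ± 0.21), Dancr (-0.50 ± 0.60) and Epb41l4aos (-1.48 ± 0.49) were not called, although DESeq2 called Epb41l4aos lower (adjusted p = 0.016). Chaserr, which lies upstream of the chromatin remodeller gene Chd2, was at 29.7, 20.8 and 15.6 CPM without a call (-0.71 ± 0.43), while Chd2 was called lower, at 85.6 CPM against 5.90 and 6.55 (log2 fold change -3.78).

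**Figure D3:**
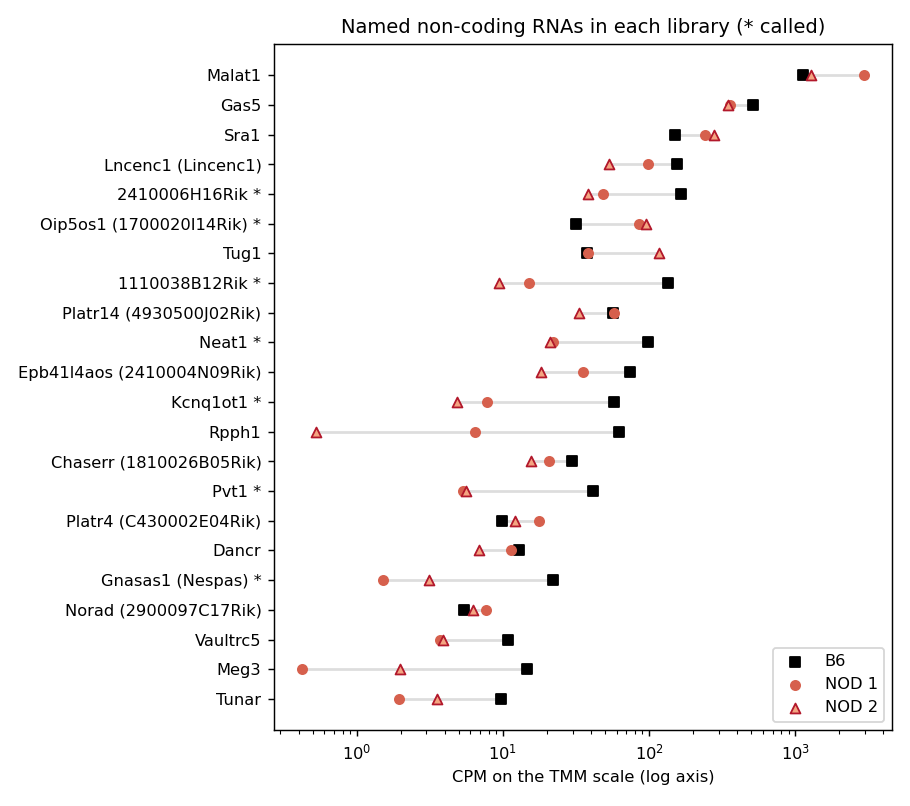
CPM on the TMM scale (log axis) of the 22 members in the lists of imprinted, nuclear and structural, small structured and pluripotent-cell RNAs, with 1 marker for each library. Kcnq1ot1, Neat1 and Pvt1 have both NOD markers far left of the B6 square, whereas Malat1 and Tug1 have 1 NOD marker beside it.

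Carriers of snoRNAs were looked at as a group after their values had been seen, so the count is a description. The group held 9 members, among them 4 that RefSeq now calls Snhg15, Snhg16, Snhg17 and Snhg20 and that stayed in because the table gives clone names. All 9 lay below B6 in both NOD libraries, with a median log2 fold change of -1.30, and all 9 stayed below 0 in every scaling and test tried. Of these, 1110038B12Rik (-3.47 ± 0.42), Snhg17 (-2.13 ± 0.34) and 2410006H16Rik (-1.94 ± 0.31) were called lower. Gas5, with the most counts of the group, was at 516 CPM in B6 and 359 and 346 in the NOD libraries. Over all genes tested at 5 CPM or more, 43.7% lay below B6 in both NOD libraries.

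The 2 small RNAs that RNA polymerase III makes without a poly(A) tail, Rpph1 (the RNA of RNase P) and Vaultrc5 (a vault RNA), lay below B6 in both NOD libraries. On total counts the NOD mean of each was under 5 CPM. They passed the rule through B6 alone, so this direction follows from it. Rpph1 had 849 counts in B6 against 214 and 18 in NOD 1 and NOD 2, and Vaultrc5 148, 123 and 132. Neither was called by edgeR (log2 fold change -4.15 ± 1.27 and -1.51 ± 0.63), and DESeq2 called Rpph1 lower (adjusted p = 8.7e-05). Rpph1 was at 62.3 CPM in B6 and an uneven 6.47 and 0.529 in the NOD libraries, while Vaultrc5 was at 10.9 CPM in B6 and 3.72 and 3.88 in NOD.

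None of the 4 RNAs known from pluripotent stem cells was called by edgeR, and 0 had an unadjusted p under 0.05. DESeq2 called 1 of them, Lncenc1 (adjusted p = 0.042). Lncenc1, an RNA of naive embryonic stem cells, was at 155 CPM in B6 against 98.5 and 52.9 in NOD 1 and NOD 2 (log2 fold change -1.04 ± 0.43). Platr14 was at 56.9, 57.7 and 33.4 CPM and Platr4 at 9.83, 17.8 and 12.1. Tunar was at 9.69, 1.94 and 3.53 CPM (-1.82 ± 0.75). Among coding markers of the inner cell mass, Zfp42 was called higher and Sox2 lower, and their summed level over 5 genes ran from 380 CPM in B6 to 529 and 761. Trophectoderm markers summed to 2901 CPM in B6 and 1649 and 1527 in NOD, with 0 of 6 called. Primitive endoderm markers summed to 391 against 118 and 158, with Gata6 called lower and Pdgfra higher. Gata6 alone held 385, 91.5 and 129.8 CPM of these sums, and the rest of the sum was higher in both NOD libraries than in B6. Leukocyte markers summed to 1.03 CPM or less, with 4 of 7 at 0 in every library, and oocyte and cumulus markers to 30.1, 10.3 and 6.08 CPM, with 0 called. The part of cell composition in the members' differences was not tested, and in bulk libraries fewer cells of a type cannot be told apart from less RNA per cell.

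Antisense RNAs are named after the coding gene on the other strand, and reads were counted without regard to strand. Of 19 such RNAs, 5 rose and 3 fell, or 26.3% and 15.8%, beside 13.4% and 9.86% over all genes tested at 5 CPM or more. The partner was called the same way in 4 of these 8. Among the 8, Ppifos, Scpep1os and Slc13a2os were under 5 CPM in B6, and Nespas and Gata6os were under it in both NOD libraries. They passed the rule through 1 strain alone, so their direction follows from it. Over the 18 pairs whose partner was tested, 12 lay on the same side of 0. Where exons of the pair overlap, both rows count the same reads, so the 2 rows are not independent.

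Plet1os rose together with Plet1, which encodes a surface protein of extraembryonic epithelium. The RNA was at 13.4 CPM in B6 against 127.9 and 171 in NOD 1 and NOD 2 (log2 fold change 3.49 ± 0.39, edgeR adjusted p = 0.021), and Plet1 at 107 CPM against 600.1 and 835 (2.74 ± 0.32). Both rows were higher in each NOD library. Of the bases of Plet1os, 23.3% lay in exons of another gene, with Plet1 the gene of largest overlap, so some reads may count for both rows. That share was 17.4% for Slc13a2os, 11.8% for Scpep1os and 12.8% for Gata6os, again with the partner as the gene of largest overlap. Slc13a2os and Slc13a2, a dicarboxylate transporter, also rose together. The antisense row had 10 counts in B6 and 475 and 492 in NOD, a ratio of CPM of 19.6 (exact 95% interval 10.6 to 41.1), and Slc13a2 had 21 counts against 1431 and 1224. Scpep1os had 3 counts in B6 and 489 and 655 in NOD, a ratio of 77.5 (26.4 to 376), far above the rise of Scpep1, a serine carboxypeptidase, from 73.7 CPM to 243 and 304 (1.89 ± 0.29).

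Ppifos stood apart from its partner. It had 7 counts in B6 and 230 and 454 in NOD (ratio 19.8, exact 95% interval 9.58 to 49.6, its call lost with total-count scaling at adjusted p = 0.054 and upper-quartile scaling at adjusted p = 0.057), while Ppif, the mitochondrial cyclophilin D, was at 93.7 CPM in B6 and 94.0 and 136 in NOD without a call. Of the 50-base words of Ppifos, 74.2% also stood in Ppif. Gata6os fell with Gata6, the primitive endoderm factor, from 23.3 CPM to 4.93 and 4.61 (-2.28 ± 0.50), and Gata6 from 385 to 91.5 and 129.8 (-1.80 ± 0.29). Abhd11os fell from 49.2 CPM to 15.3 and 10.8 (-1.91 ± 0.42) without a call for Abhd11 (-0.36 ± 0.26). With upper-quartile scaling the calls of Gata6os (adjusted p = 0.055) and Abhd11os (adjusted p = 0.054) were lost. Oip5, beside Oip5os1, was nearly level at 51.8, 50.3 and 59.2 CPM (0.08 ± 0.35). Kank4os (0.92 ± 0.55) was not called although Kank4 was called higher (3.46 ± 0.80), and neither was Lppos although Lpp was called lower (-1.75 ± 0.34). Lppos was at 11.9 CPM in B6 and 8.77 and 2.64 in the NOD libraries (-1.06 ± 0.86), with -2.17 without NOD 1 and -0.44 without NOD 2.

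**Figure D4:**
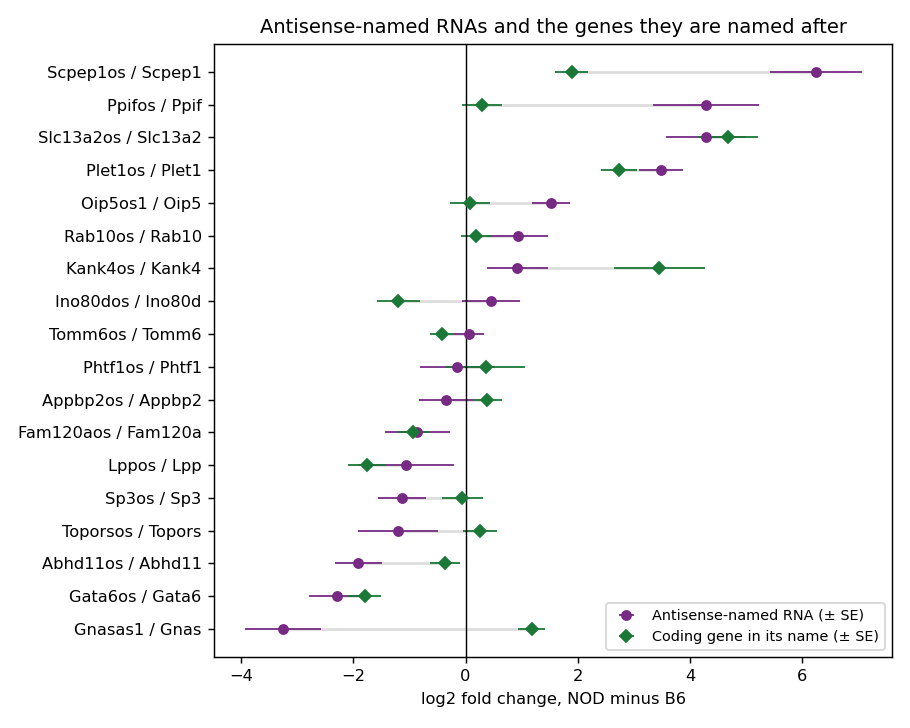
Log2 fold change of NOD minus B6 (horizontal, points with ± SE bars) for 18 antisense-named RNAs and for the coding gene in each name, 1 pair per line. Plet1os with Plet1 and Slc13a2os with Slc13a2 lie together on the right, Gata6os with Gata6 on the left, and Gnasas1 (-3.25) and Gnas (1.18) on opposite sides.

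The RNAs with the largest rises, in this paragraph and the next, had 0 to 6 counts in B6. They passed the mean of 5 CPM through NOD alone, so their direction follows from the rule. C920021L13Rik had 0 counts in B6 and 758 and 334 in NOD, at least 74.4-fold higher in the NOD mean against a floor of 3 B6 counts (0.220 CPM), and at least 44.6-fold higher in NOD 2 taken without NOD 1. The coding gene BC028528, whose exons it overlaps, had 0 counts in B6 and 1361 and 590 in NOD, and Ciart, also within its span, 12, 36 and 111. 1700097N02Rik had 0, 476 and 213 counts, at least 46.9-fold higher in the NOD mean and at least 28.4-fold higher without NOD 1. Both rows at 0 in B6 were thus present in each NOD library, at a higher level in NOD 1 than in NOD 2.

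AI506816 had 1 count in B6 and 598 and 563 in NOD, a ratio of CPM of 236 (exact 95% interval 42.2 to 9323). Gm20337 had 1, 418 and 463 counts (179, interval 32.0 to 7076), and 1700028J19Rik 1, 283 and 386 (136, interval 24.3 to 5375). In these 3 the NOD libraries lay close to each other. Gm16861 had 6 counts in B6 against 404 and 448 (28.8, interval 13.2 to 78.8), and its overlapping gene Nudt16l1 also rose, from 20.3 CPM to 89.8 and 92.8 (log2 fold change 2.17), while Mgrn1 was not called. Ccl25, a thymic and gut chemokine listed here through a non-coding transcript, had 1 count in B6 and 749 and 200 in NOD (193, interval 34.5 to 7622). NOD 1 gave a ratio of 309 and NOD 2 one of 80.1. The transcript of Ccl25 lay 97.8% in the coding exons of its own gene. Its call was lost with total-count (adjusted p = 0.052) and upper-quartile scaling (adjusted p = 0.055).

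The largest falls left few counts in NOD. Each row in this paragraph had a NOD mean under 5 CPM on total counts. These rows passed the rule through B6 alone, and their direction follows from it. 9330102E08Rik had 286 counts in B6 against 4 and 0 in NOD 1 and NOD 2, so its CPM in B6 was 352 times that of the NOD libraries together (exact 95% interval 136 to 1301). NOD 1 alone gave 173 times, and against the floor of NOD 2 it was at least 238-fold higher. The pseudogene Gm4956 had 420, 8 and 2 counts (207 times, interval 111 to 434), or 127 times with NOD 1 alone and 524 times with NOD 2 alone. 1600023N17Rik had 281, 0 and 34 counts (40.7 times, interval 28.4 to 59.9), and DESeq2 did not call it (adjusted p = 0.39). Its NOD libraries disagreed beyond counting error, with B6 20.6 times as high as NOD 2 and at least 227-fold higher than the floor of NOD 1. BC052688 was at 68.8 CPM in B6 and 1.78 and 1.85 in NOD (log2 fold change -5.24 ± 0.41, edgeR adjusted p = 0.020), and 2310040G24Rik at 31.6 against 1.42 and 1.23 (-4.57 ± 0.53). Neither overlapped another gene of the table. Cox6b2, a subunit of cytochrome c oxidase known from testis, fell from 58.5 CPM to 5.54 and 1.03 (-4.15 ± 0.96, edgeR adjusted p = 0.049), with -5.82 without NOD 1 and -3.40 without NOD 2, a call lost with total-count (adjusted p = 0.056) and upper-quartile scaling (adjusted p = 0.063).

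Pseudogenes were 6 of the 8 members with the highest mean FPKM, and several of these rows shared their place with another gene. Rplp2-ps1, a copy of the acidic ribosomal protein P2, fell from 968 CPM in B6 to 293 and 345 (-1.60 ± 0.21, edgeR adjusted p = 0.023). It lies within the span of Wdr89, and the counts of both rows were nearly the same: 13191, 9685 and 11751 for the pseudogene and 13286, 9912 and 12485 for Wdr89. Rplp2 itself had 3532, 3925 and 5047 counts and was not called (log2 fold change -0.96). Whose reads these are cannot be told apart from the counts. In all, 150 members overlapped another row of the table, and 6 held its count to within 10% in every library, namely Gm15772, Gm6644, Rplp2-ps1, 1810009A15Rik, 6430706D22Rik with Hjurp and the read-through row Raver1-fdx1l with Fdx1l.

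Rps15a-ps6, a copy of ribosomal protein S15a within Nudcd3, fell from 57.8 CPM to 3.27 and 1.85 (-4.49 ± 0.52, edgeR adjusted p = 0.021). Rps15a fell by less, from 530 CPM to 127.8 and 108 (-2.17), and Nudcd3 was not called (0.57). Gm5512 (-4.28 ± 0.72, or -5.12 without NOD 1), listed on Rmnd1, moved with Rmnd1 (-4.67), for which B6 had 312 counts against 36 and 24. Rps15a-ps6 and Gm5512 were under 5 CPM in both NOD libraries, so their direction also follows from the rule. Rpl14-ps1, at 761 CPM in B6 and 488 and 424 in NOD, missed the threshold (-0.74 ± 0.21, edgeR adjusted p = 0.072). Not every ribosomal copy was lower by a call, as Rps4l lay at 937, 847 and 901 CPM (-0.10 ± 0.19). The highest mean FPKM of all members was that of 2210409E12Rik, a pseudogene row of 376 bases, at 1148 in B6 and 1483 and 1412 in NOD, without a call (0.33 ± 0.21). Gm4926, which the naming rule did not choose, rose from 18.0 CPM to 211 and 209 (3.55 ± 0.31), with NOD libraries that nearly coincided.

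Among the coding symbols, the row of Srsf7, a splicing factor, rose from 386 CPM in B6 to 1061 and 1088 in NOD (1.48 ± 0.20, edgeR adjusted p = 0.024). Reads of the Srsf7 messenger RNA may also count on this row. Srsf9, a relative of Srsf7, was at 382, 397 and 361 CPM (-0.01 ± 0.22). Wdr73, at 110.6, 114.0 and 110.7 CPM, Tti2, at 56.1, 52.3 and 57.3, and Mllt10, at 51.1, 64.9 and 35.8, were the other members at a mean of 20 CPM or more with the smallest differences. For Mllt10 the NOD libraries lay on opposite sides of B6. The SE of these 4 log2 fold changes ran from 0.22 to 0.48. A call also needed a 2-fold difference, so smaller changes could not be called whatever their SE. The absence of a call does not show equal levels. Tcl1, an Akt co-activator of early embryos, had 106 counts in B6 against 0 and 588 in NOD 1 and NOD 2, and Cdk3-ps had 318, 0 and 54. E130018N17Rik had 230, 0 and 54 counts. These 3 members differed most between the NOD libraries, and none was called.

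Of the 91 called members, 54 (23 higher and 31 lower) were also called in each of the 4 alternatives that called any gene. No gene in the table, member or not, was called by limma-voom or when genes with low counts were kept, so every call above is lost there, although 140 and 161 members had an unadjusted p under 0.05. With total-count scaling the median of all genes tested moved by -0.19, and 23 members were called higher and 50 lower, which makes 31.5% of the calls higher against 46.2% in the scaling used above.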

How the data were processed

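RNA of mouse blastocysts (1 B6 and 2 NOD libraries) was measured by the authors with the SMART-Seq V4 low-input kit and sequenced as single-end reads of 50 bases. Per the labels, reads were aligned to mm10 with STAR 2.2.0c (the study's methods name a later version) and counted with HOMER on exons of both strands, with 1 transcript kept per gene. mm10 is the B6 genome; how NOD differences from it affect alignment, and how reads that fit several places were placed, was not tested. The deposited values are raw counts, which summed to 12505685 in B6, 33891715 in NOD 1 and 36171013 in NOD 2, so B6 sets the precision. Floors of 3 counts were 0.220, 0.0908 and 0.0882 CPM. Floors and exact Clopper-Pearson 95% intervals cover counting error only, since PCR reads without molecular identifiers are not independent molecules.

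Members were taken by identifier, name, chromosome and mean CPM on column totals. Members, gene lists and tests were chosen with earlier results of these data known. Genes were filtered with filterByExpr (minimum count 10), scaled by TMM and tested on all 14456 genes with the edgeR 4.0.16 quasi-likelihood test on the trended dispersion (R 4.3.3, 1 residual degree of freedom, Benjamini-Hochberg adjustment). SE is the absolute log2 fold change over the square root of F. The fit was tested on simulated data. DESeq2 1.42.0, limma 3.58.1, other scalings and filters, and leaving out each NOD library were the alternatives. Exons, words of 50 bases and sequences came from GENCODE M21, and names and places from RefSeq GRCm38.p6.

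Named members were the 8 with the highest mean CPM, the 8 largest called rises and falls, every member of the lists given by symbol, 3 on each side of the limit of 5 CPM, the 4 with the smallest absolute log2 fold change at a mean of 20 CPM or more, the 3 that differed most between the NOD libraries, and overlapping genes of these.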

Additional observations from a re-analysis of the deposited data

How the results depend on the processing

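The depth of the B6 library limits members near the mean of 5 CPM, and 1 B6 library leaves its own spread unmeasured. The main scaling called 91 members (42 higher, 49 lower) with a median log2 fold change of -0.33 over the 354. With total counts 23 were called higher and the median was -0.51. Upper-quartile factors called 56 (24 higher, 32 lower), and DESeq2 called 138 (60 higher, 78 lower). limma-voom called 0 (0 higher, 0 lower), with 140 members at an unadjusted p under 0.05, and keeping genes with low counts called 0 (0 higher, 0 lower), with 161. The 230 members of non-coding or pseudogene type had 26 higher and 39 lower and a median of -0.72. The 204 without a span overlap had 46 called (28 higher, 18 lower) and a median of -0.13. The 188 with under 10% shared words had 48 called (21 higher, 27 lower) and a median of -0.19. These last counts fall in part because fewer members were counted. Leaving out 1 NOD library, which allows no test, gave medians from -0.45 to -0.35. Limits of 2 and 10 CPM, DESeq2 size factors, and leaving out the 13 rows listed elsewhere (chosen after seeing the data, 86 called) stayed within 1.5 times the 91. Named members that changed sign under another scaling, filter or test were all uncalled: Mllt10 (0.0032) and Srsf9 (0.017) with low counts kept, Tcl1 with total counts (-0.060) and limma-voom (-3.84), and Wdr73 with DESeq2 size factors (-0.0014), total counts (-0.16) and DESeq2 (-0.0014). Without NOD 1, 4632415L05Rik (-0.38) and Tti2 (0.030) changed sign, and without NOD 2 Platr14 (0.020), Mllt10 (0.34), Srsf9 (0.057) and Tcl1 (-10.5) did, none of them called. The cause of these shifts was not tested. No paired analysis was possible because B6 has 1 library, so the strains share fewer than 2 replicate numbers.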

Other observations

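Read-through rows, which join neighbouring coding genes, were counted among the non-coding RNAs. ChkbCpt1b, which runs from choline kinase beta into the muscle carnitine palmitoyltransferase, held 1043 counts in B6 against 695 and 1021 in NOD 1 and NOD 2. The Chkb row held 1237, 844 and 1151 counts and Cpt1b 122, 0 and 41. Chkb was called lower by edgeR's quasi-likelihood test (log2 fold change -1.61 ± 0.36, adjusted p = 0.046), a call lost with upper-quartile scaling (adjusted p = 0.060). The read-through row gave -1.58 ± 0.39 (adjusted p = 0.054). Zfp91Cntf held 1595, 3030 and 1603 counts beside 2617, 3815 and 2330 for Zfp91. Neither of these was called.

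D330041H03Rik, which shares 48.5% of its 50-base words with the lipid transporter gene Abca3, was chosen after its values were seen. It fell from 192 CPM in B6 to 18.9 and 11.3 in NOD (log2 fold change -3.67 ± 0.41), and Abca3 fell from 226 CPM to 31.5 and 23.5 (-3.04 ± 0.32).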
